A study of Homo sapiens with 18 samples.

Results

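The BCL2 family decides whether a cell opens its mitochondria and dies, and the transcripts of 10 of its genes were followed in tumor-initiating hepatocellular carcinoma (HCC) cells after disulfiram (DSF) or 5-fluorouracil (5-FU). The genes were given as a list, BCL2, BCL2L1, MCL1, BAX, BAK1, BID, BIK, BBC3, PMAIP1 and BCL2L11, and every array probe named for one of them was taken. All 10 of the 10 were found among the 19720 genes named on the array, through 15 probes, and all 15 probes passed the filter on dim signal. BCL2, BAX and BID had 2 probes each, BCL2L11 had 3 and the other 6 genes had 1, and values are those of the brightest probe of a gene unless another probe is named.

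Guardians such as BCL2, BCL2L1 (BCL-XL) and MCL1 hold the effectors BAX and BAK1 in check at the outer mitochondrial membrane. Once free, the effectors oligomerize into pores through which cytochrome c leaves and activates caspases. The BH3-only proteins BID, BIK, BBC3 (PUMA), PMAIP1 (NOXA) and BCL2L11 (BIM) carry stress signals to this switch by occupying the guardians or activating the effectors, and several of them are controlled largely by transcription.

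Huh1 and Huh7 are established human HCC lines. Their EpCAM+ cells, the fraction studied as tumor-initiating cells, were isolated by sorting in 6 groups of 3 arrays: control, DSF at 0.1 µM and 5-FU at 1 µM for 48 hours in Huh1, and the same in Huh7. The labels name the treatment before the sort, and the methods do not spell out their order. DSF is an alcohol-aversion drug, and 5-FU is an antimetabolite that disturbs thymidylate synthesis. Copper chloride appears beside DSF in the methods, the treatment of the controls is not described there, and copper and DSF cannot be told apart. Dead cells were removed in sorting, and as only RNA was measured nothing is known here of protein, cleavage or phosphorylation of the family.

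Levels are log2 spot signals relative to the 75th percentile of the same array, so that 0 is the 75th percentile and a difference of 1 is a 2-fold difference. Levels of one probe cannot be set against those of another. A call is a Benjamini-Hochberg adjusted p under 0.05 from limma over 29894 probes and all 18 arrays. Outside the family, all 6 hepatoma markers (EPCAM, AFP, ALB, GPC3, KRT8 and KRT18) were well above background on every array. Of 8 measured markers of blood, endothelial and stromal cells, 4 to 7 per group were above background on all 3 arrays, while COL3A1 was so on 1 of all 18 arrays. The summed log2 level of the 8 ran from -0.35 to -0.25 in Huh7 control, -0.34 to -0.31 after DSF and 1.72 to 1.82 after 5-FU, and in Huh1 from 0.59 to 1.12, 0.58 to 0.68 and 1.03 to 1.39. Most of that sum was LUM, a stromal proteoglycan gene, at a mean of -1.23 in Huh7 control and 1.49 in Huh7 after 5-FU, and its part in any result below was not tested.

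The most marked changes lay among the BH3-only genes and differed between the lines. In Huh1, BIK, BBC3 and PMAIP1 rose after both drugs, by 1.88 to 4.21-fold. In Huh7, on this scaling, BIK alone of the 3 rose, by 3.22-fold after DSF and 11.1-fold after 5-FU, while PMAIP1 was not called and BBC3 fell after 5-FU. On their brightest probes the guardians were higher or not called in each drug comparison, and the effectors moved by less than 1.5-fold on this scaling.

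By the count, 6 of the 10 genes were called after DSF in Huh1 (4 higher, 2 lower), where 44.2% of all probes were called (23.9% higher, 20.3% lower). In Huh7 DSF gave 6 calls, all higher, where 46.7% of all probes were called (27.3% higher, 19.4% lower). After 5-FU, 8 genes were called in Huh1 (6 higher, 2 lower) against 48.2% of probes (22.2% higher, 26.0% lower), and 7 in Huh7 (6 higher, 1 lower) against 57.1% (27.3% higher, 29.7% lower). In each comparison the genes were called, and called higher, more often than all probes. Calls lower came near the share of all probes in Huh1 and fell below it in Huh7. With only 10 genes, chosen with earlier results of these data known, these differences from the shares of all probes were not tested. What follows rests on the size and direction for single genes. The median change over the 10 genes was 0.14 and 0.29 after DSF and 0.36 and 0.22 after 5-FU in Huh1 and Huh7, while the median over all probes lay between -0.05 and 0.08.

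**Figure D1:**
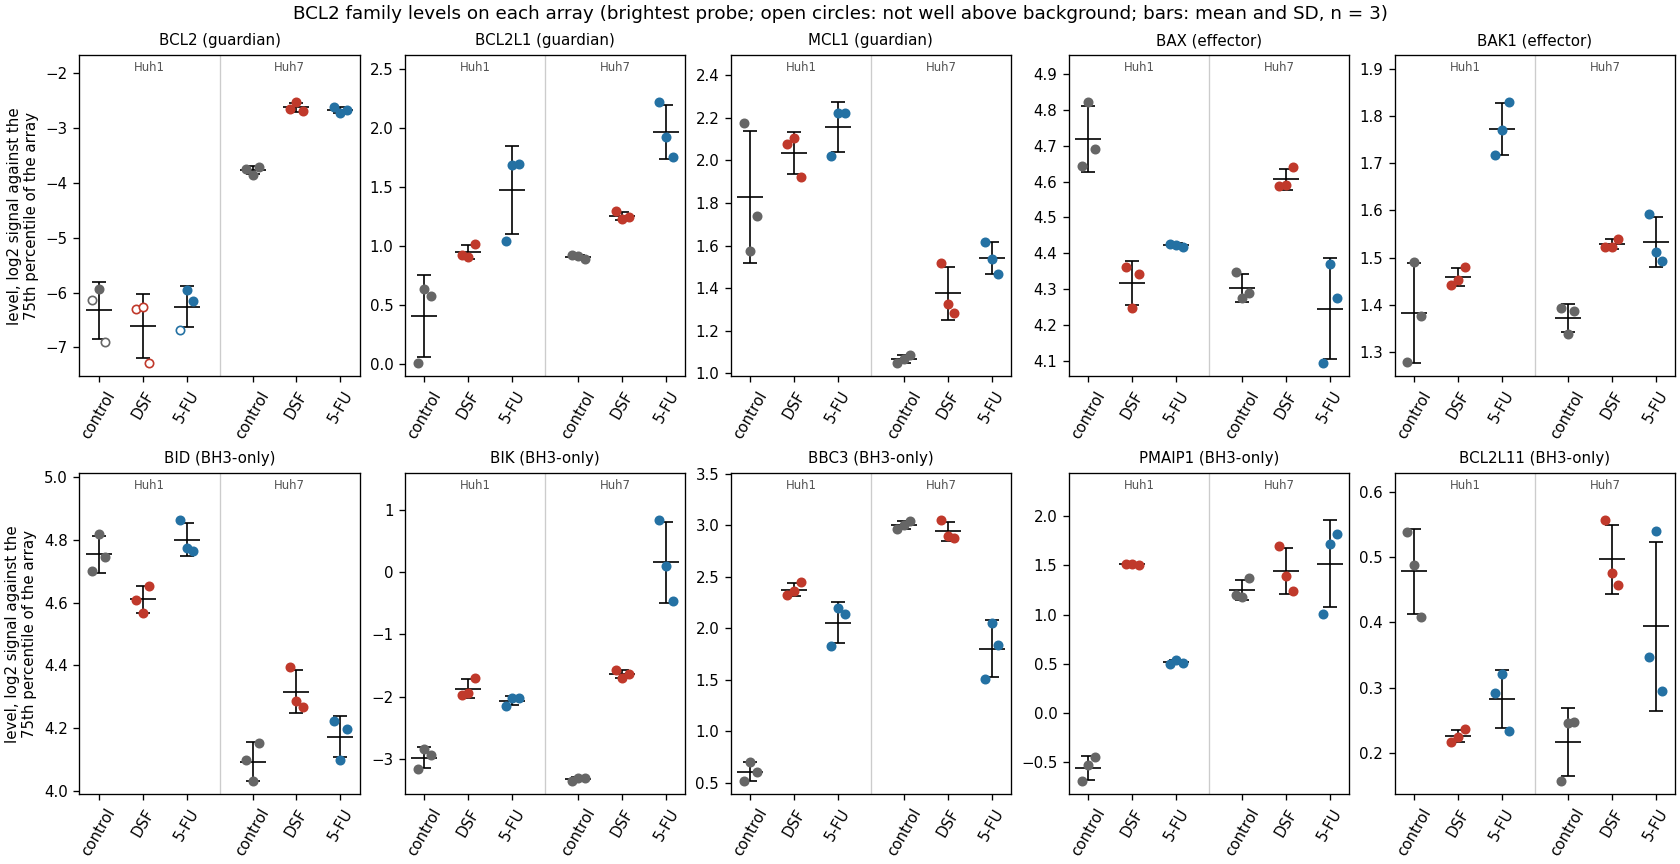
Level of each of the 10 genes on each of the 18 arrays (y axis, log2 signal relative to the 75th percentile of the array), by line and treatment, with filled circles for spots well above background, open circles for spots that were not, and bars for mean and SD of 3 arrays. PMAIP1 and BBC3 are lower in Huh1 control than in every other group, BIK is highest in Huh7 after 5-FU, and BCL2 in Huh1 lies near background.

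BCL2, the founding guardian of the family, was well above background on every array in Huh7 and on few in Huh1. On its brightest probe the 3 Huh7 control arrays read -3.75, -3.85 and -3.72, the Huh7 DSF arrays -2.66, -2.54 and -2.69, and the Huh7 5-FU arrays -2.62, -2.72 and -2.68. Both treated groups of Huh7 lay above all controls and overlapped each other, and BCL2 rose by 2.21-fold after DSF (log2 1.14 ± 0.27 SE, adjusted p = 0.00364) and by 2.14-fold after 5-FU (log2 95% interval 0.51 to 1.69, adjusted p = 0.00329). In Huh1 this probe was well above background on 1 control array, on 0 DSF arrays and on 2 5-FU arrays, with readings between -7.29 and -5.94, so no fold is given there. Of the Huh7 DSF arrays, the 1 on the controls' slide read 1.11 above their mean.

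The other BCL2 probe, A_23_P352266, was not well above background on any Huh1 array and was so on all Huh7 arrays. Its mean was -3.76 in Huh7 control and -7.67 in Huh1 control. On this probe that is at least 6.76-fold higher in Huh7 control, with dim arrays set at the lowest signal that counted as above background. Both BCL2 probes passed the filter on dim signal only through Huh7 groups, so no p-value is given for BCL2 between the controls. On the brightest probe, measured above background on 1 of the 3 Huh1 controls, the difference was 2.55 on the log2 scale. In Huh7 A_23_P352266 gave a like rise after DSF, 1.21 on the log2 scale, and a smaller one of 0.38 after 5-FU (adjusted p = 0.0152). The 5-FU rise of BCL2 in Huh7 thus ranged from 1.30 to 2.14-fold with the probe chosen.

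BCL2L1, whose long product BCL-XL guards the outer membrane, rose about 2-fold after 5-FU in both lines. It read 0.01, 0.64 and 0.58 in Huh1 control, 0.93, 0.91 and 1.02 after DSF, and 1.04, 1.69 and 1.70 after 5-FU. In Huh7 the control arrays read 0.93, 0.92 and 0.89, the DSF arrays 1.30, 1.23 and 1.25, and the 5-FU arrays 2.22, 1.93 and 1.76. In both lines the 3 groups did not overlap and were ordered control, DSF, 5-FU.

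After 5-FU BCL2L1 rose by 2.09-fold in Huh1 (adjusted p = 0.000234) and by 2.08-fold in Huh7 (adjusted p = 0.000165), and the 2 effects differed by -0.01 on the log2 scale with a 95% interval of -0.56 to 0.54. After DSF it rose by 1.46-fold in Huh1 (adjusted p = 0.0242) and was not called in Huh7 (log2 0.35, interval -0.04 to 0.74). The Huh1 DSF call was lost without the low first control array, where the change was 0.34, and without the first or the third DSF array (0.56 and 0.51), and neither a fit with a slide term (adjusted p = 0.0783) nor median centring (0.37) called it. In fits of only the groups compared, the DSF change was called in Huh7 (adjusted p = 0.00176) and not in Huh1 (adjusted p = 0.0551).

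MCL1, a guardian whose protein turns over quickly, moved least of the 3. Its Huh1 control arrays read 2.17, 1.57 and 1.74, its Huh1 DSF arrays 2.08, 2.11 and 1.92, and its Huh1 5-FU arrays 2.02, 2.22 and 2.22. The control range covered the DSF group wholly and the 5-FU group in part. In Huh7 it read 1.05, 1.07 and 1.09 in control, 1.52, 1.33 and 1.28 after DSF and 1.62, 1.54 and 1.47 after 5-FU, with every treated array above every control.

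MCL1 rose by 1.39-fold after 5-FU in Huh7 (adjusted p = 0.00437) and by 1.25-fold in Huh1 (adjusted p = 0.0417), the latter lost when any of 11 single arrays was left out. It was not called after DSF in Huh1 (log2 0.21, interval -0.06 to 0.47) or in Huh7 (log2 0.31, interval 0.04 to 0.57, adjusted p = 0.0537). None of its drug effects was shown to differ between the lines.

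BAX, the cytosolic effector that moves to mitochondria when activated, changed in opposite directions after DSF. On its brightest probe it read 4.64, 4.82 and 4.69 in Huh1 control and 4.36, 4.25 and 4.34 after DSF, against 4.35, 4.27 and 4.29 in Huh7 control and 4.59, 4.59 and 4.64 after DSF. Neither pair of groups overlapped. BAX fell to 0.757 of control in Huh1 (adjusted p = 0.000315) and rose by 1.23-fold in Huh7 (adjusted p = 0.00283), a difference of 0.70 ± 0.10 SE between the lines (adjusted p = 8.24e-05). The Huh7 rise lost its call with the slide as a block, since 2 of its 3 DSF arrays were alone on a slide, and the array sharing the controls' slide read 0.28 above them. With spike-in scaling neither change was called (-0.27 in Huh1, 0.13 in Huh7), nor was the difference between the lines (0.40, adjusted p = 0.0892). The other BAX probe, A_33_P3341144, was called lower after DSF in Huh1 (-0.30, adjusted p = 0.0134) and not called in Huh7 (0.21, adjusted p = 0.0637). Its difference between the lines was called (0.51, adjusted p = 0.00519).

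After 5-FU the BAX probes disagreed. The brightest, A_23_P208706, read 4.43, 4.42 and 4.42 in Huh1, below all controls (log2 -0.30, adjusted p = 0.00293), and 4.09, 4.37 and 4.27 in Huh7, across the control range (log2 -0.06, interval -0.21 to 0.09). The dimmer A_33_P3341144, designed to another BAX transcript record, was higher after 5-FU in both lines, by 0.23 in Huh1 (adjusted p = 0.0412) and 0.56 in Huh7 (adjusted p = 7.18e-05). No direction of BAX after 5-FU is therefore given.

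BAK1, the effector that resides on mitochondria, varied little. Its 6 group means lay between 1.37 and 1.77, and its arrays read 1.28, 1.49 and 1.38 in Huh1 control and 1.72, 1.77 and 1.83 after 5-FU. That was the one change over 1.3-fold, a rise of 1.31-fold in which no array overlapped (adjusted p = 7.77e-05). In Huh7 it rose by 1.12-fold after 5-FU (adjusted p = 0.0297) and 1.11-fold after DSF (adjusted p = 0.0408), both lost when single arrays were left out and the latter turned to -0.019 by spike-in scaling, and after DSF in Huh1 it was not called (log2 0.08, interval -0.05 to 0.20).

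**Figure D2:**
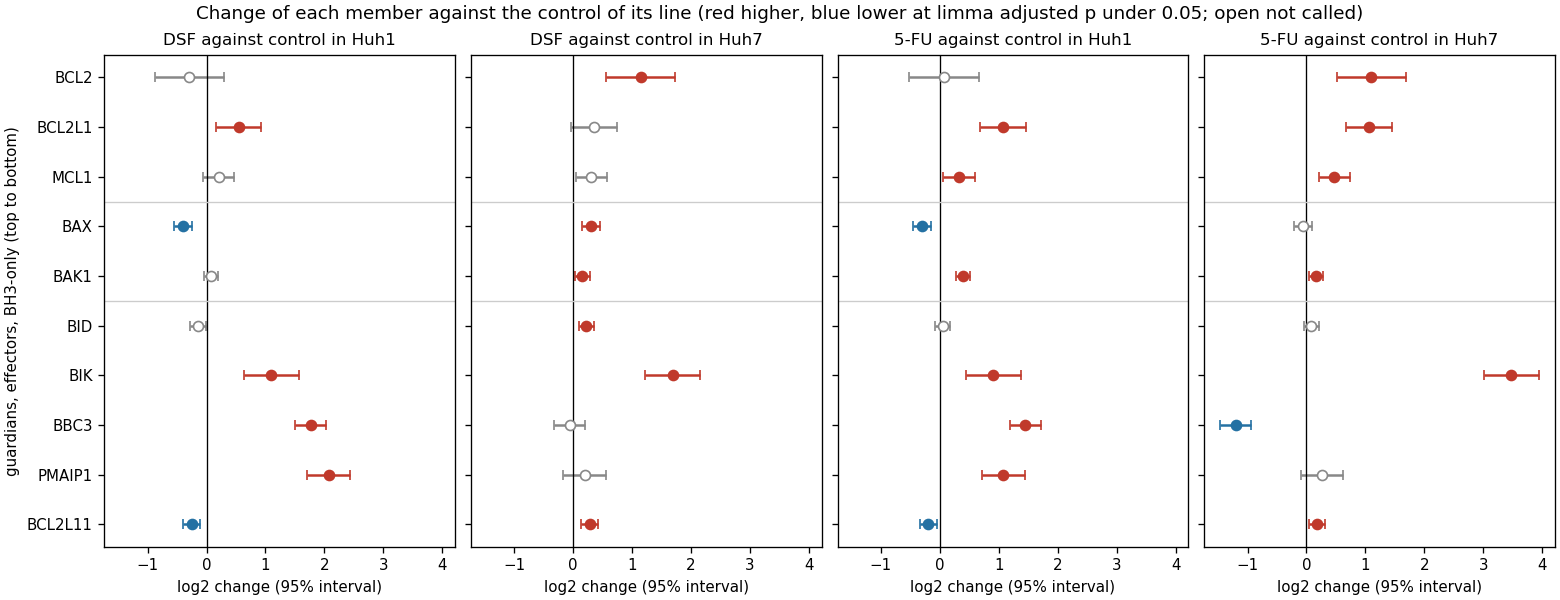
Log2 change of each gene against the control of its own line (x axis) with the 95% interval from limma, for DSF and 5-FU in Huh1 and Huh7, with guardians at the top, effectors in the middle and BH3-only genes at the bottom. Red marks a call higher, blue a call lower and open grey no call, and the intervals of BIK, BBC3 and PMAIP1 in Huh1 all lie above 0.

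BIK, a BH3-only protein of the endoplasmic reticulum membrane, was the one gene that rose in all 4 drug comparisons with a change over 1.5-fold. Its arrays read -3.16, -2.83 and -2.93 in Huh1 control, -1.98, -1.94 and -1.70 after DSF, and -2.15, -2.03 and -2.02 after 5-FU. In Huh7 they read -3.36, -3.30 and -3.31 in control, -1.58, -1.70 and -1.63 after DSF, and 0.83, 0.10 and -0.46 after 5-FU. No treated array overlapped a control, and the 3 Huh7 5-FU arrays stood above all others although they spread over more than 1 log2 unit.

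The rise in Huh1 was 2.15-fold after DSF (log2 95% interval 0.63 to 1.57, adjusted p = 0.000888) and 1.88-fold after 5-FU (log2 0.91 ± 0.22 SE, adjusted p = 0.00338). In Huh7 it was 3.22-fold after DSF (log2 1.69 ± 0.22, adjusted p = 2.71e-05) and 11.1-fold after 5-FU (log2 3.48 ± 0.22, adjusted p = 1.04e-08), the latter between 3.14 and 3.78 with any single array left out. The 5-FU effect was larger in Huh7 by 2.57 on the log2 scale (adjusted p = 2.42e-05). The DSF effects were not shown to differ (0.58, interval -0.08 to 1.25), and neither were the controls of the 2 lines (-0.35, interval -0.82 to 0.12).

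BBC3 encodes PUMA, a BH3-only protein that binds every guardian. It read 0.52, 0.70 and 0.60 in Huh1 control, 2.32, 2.36 and 2.45 after DSF, and 1.83, 2.20 and 2.14 after 5-FU. In Huh7 it read 2.97, 3.00 and 3.04 in control, 3.05, 2.90 and 2.88 after DSF, and 1.51, 2.06 and 1.84 after 5-FU. Huh1 controls were below every other array of the series, Huh7 controls and DSF arrays overlapped at the top, and the Huh7 5-FU arrays lay below both and overlapped the Huh1 5-FU arrays.

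BBC3 rose in Huh1 by 3.41-fold after DSF (log2 1.77 ± 0.12 SE, adjusted p = 8.03e-08) and by 2.73-fold after 5-FU (log2 1.45 ± 0.12, adjusted p = 5.45e-07). In Huh7 it was not called after DSF (log2 -0.06, interval -0.32 to 0.20) and fell to 0.435 of control after 5-FU (log2 -1.20 ± 0.12, adjusted p = 1.19e-06). The effect in Huh7 was below that in Huh1 by -1.83 for DSF (adjusted p = 2.91e-06) and -2.65 for 5-FU (adjusted p = 1.41e-07). Before treatment BBC3 was 2.40 log2 units higher in Huh7 (adjusted p = 2.01e-10). The fall after 5-FU in Huh7 is relative to the bulk of probes, since with spike-in scaling it was -0.22 and not called.

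PMAIP1 encodes NOXA, a BH3-only protein that binds mainly MCL1, and is induced by the integrated stress response. It read -0.70, -0.53 and -0.45 in Huh1 control, 1.51 on each of the 3 DSF arrays, and 0.50, 0.54 and 0.51 after 5-FU, 3 groups without overlap. In Huh7 it read 1.20, 1.18 and 1.37 in control, 1.70, 1.39 and 1.24 after DSF, and 1.01, 1.72 and 1.82 after 5-FU, 3 groups that overlapped.

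PMAIP1 rose in Huh1 by 4.21-fold after DSF (log2 2.07 ± 0.17 SE, adjusted p = 3.59e-07), the largest change of the 10 genes there, and by 2.11-fold after 5-FU (log2 1.08 ± 0.17, adjusted p = 0.000119). In Huh7 it was called after neither DSF (log2 0.19, interval -0.17 to 0.55) nor 5-FU (log2 0.27, interval -0.10 to 0.63). The 5-FU value in Huh7 depends on its first array, without which the change was 0.52 and called higher, and with spike-in scaling it was 1.25 and called. The Huh7 DSF array on the controls' slide read 0.45 above their mean. The lines differed in the DSF effect by -1.88 (adjusted p = 3.43e-05) and in the 5-FU effect by -0.81 (adjusted p = 0.0154), and in control PMAIP1 was 1.81 log2 units higher in Huh7 (adjusted p = 1.72e-07). With spike-in scaling the 5-FU difference was -0.65 and not called.

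**Figure D3:**
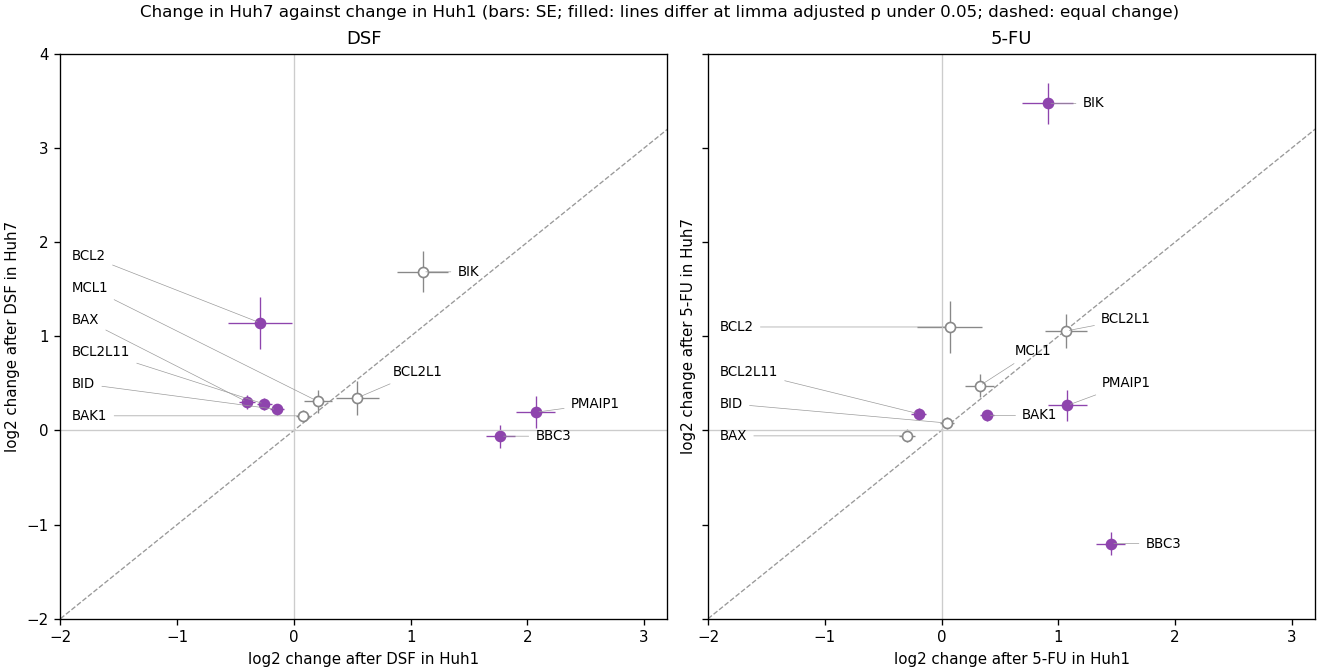
Log2 change in Huh7 (y axis) against that in Huh1 (x axis) for DSF (left) and 5-FU (right), with SE bars, one point per gene, filled where the effects of the lines differed at a limma adjusted p under 0.05, and a dashed line for equal change. BBC3 and PMAIP1 lie far below the dashed line for both drugs, and BIK lies far above it for 5-FU.

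BBC3 and PMAIP1 moved together in Huh1 under both drugs, and the 250 bases before their RefSeq start sites (GRCh38.p14) are shown for that reason. Letters matched on either strand are in capitals: the GC box GGGCGG, the TATA box TATAAA, the cAMP response element core TGACG, the metal response core TGCACNC or TGCGCNC, the C/EBP-ATF site TGATGNAA, and, by name, an E2F site. The table of promoters held no entry for MCL1 and BIK and entries for the other 8 genes.
PMAIP1, chr18:59899746-59899995, plus strand: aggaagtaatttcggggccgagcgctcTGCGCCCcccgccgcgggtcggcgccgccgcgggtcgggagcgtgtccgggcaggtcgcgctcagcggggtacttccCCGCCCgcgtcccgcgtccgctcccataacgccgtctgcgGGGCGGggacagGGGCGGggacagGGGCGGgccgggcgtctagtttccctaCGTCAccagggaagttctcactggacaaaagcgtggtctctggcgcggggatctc
BBC3, chr19:47232668-47232917, minus strand: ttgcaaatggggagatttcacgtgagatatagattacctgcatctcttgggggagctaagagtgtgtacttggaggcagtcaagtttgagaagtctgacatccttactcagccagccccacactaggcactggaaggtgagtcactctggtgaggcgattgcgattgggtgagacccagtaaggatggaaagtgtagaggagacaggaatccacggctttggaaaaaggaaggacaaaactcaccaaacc

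The PMAIP1 window held 4 GC boxes, 1 cAMP response element core and 1 metal response core, letters found at least once in 42.6%, 21.2% and 24.8% of all 35116 windows of the same length. The BBC3 window held none of the 6 motifs searched. Their GC contents were 72.8% and 49.2%, with a median of 58% over all windows. These matches describe the letters of 1 annotated start per gene and say nothing of binding.

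BID, the BH3-only protein that caspase-8 cleaves, had narrow changes. It read 4.70, 4.82 and 4.75 in Huh1 control, 4.61, 4.57 and 4.65 after DSF, and 4.86, 4.77 and 4.77 after 5-FU. In Huh7 it read 4.10, 4.03 and 4.15 in control, 4.39, 4.29 and 4.27 after DSF, and 4.22, 4.10 and 4.20 after 5-FU. Every Huh1 array was above every Huh7 array, and the control levels differed by -0.66 (Huh7 minus Huh1, adjusted p = 1.31e-07).

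BID rose by 1.17-fold after DSF in Huh7 (adjusted p = 0.00753) and was not called in the other 3 drug comparisons, where the changes lay between -0.14 and 0.08. The DSF effects of the lines differed by 0.37 (adjusted p = 0.00349). The Huh7 rise lost its call with quantile normalization (adjusted p = 0.0626), median centring (adjusted p = 0.0776) and spike-in scaling (0.048), and the line difference with spike-in scaling (0.060). The other probe, A_24_P187948, was called lower after DSF in Huh1 as well (log2 -0.17, adjusted p = 0.0308).

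BCL2L11, which encodes the BIM isoforms, gave values that depended on the probe. The brightest, A_24_P122921, read 0.54, 0.49 and 0.41 in Huh1 control, 0.22, 0.22 and 0.24 after DSF, and 0.29, 0.32 and 0.23 after 5-FU. In Huh7 it read 0.16, 0.25 and 0.25 in control, 0.56, 0.48 and 0.46 after DSF, and 0.35, 0.54 and 0.29 after 5-FU. Treated arrays were all below control in Huh1 and all above it in Huh7.

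On that probe BCL2L11 fell by 0.25 after DSF (adjusted p = 0.00622) and by 0.20 after 5-FU (adjusted p = 0.0243) in Huh1, and rose by 0.28 (adjusted p = 0.00321) and 0.18 (adjusted p = 0.0328) in Huh7, all on the log2 scale. After DSF in Huh1 the probe A_33_P3251932 was called the other way (0.25, adjusted p = 0.0295) and A_33_P3398526 was not called (0.13). These probes, a pair for another transcript record, went the opposite way after 5-FU in Huh7, at -0.56 (adjusted p = 7.15e-05) and -0.24 (adjusted p = 0.0248). After DSF in Huh7 all 3 probes were called higher, by 0.28 to 0.50, although with spike-in scaling the brightest was at 0.11 and not called. With that scaling its DSF change in Huh1 was not called either (-0.12). A_33_P3251932 was 1.91 log2 units higher in Huh7 control than in Huh1 control (adjusted p = 6.1e-11), where the brightest probe was 0.26 lower. Among the 4 drug comparisons with control, DSF in Huh7 was the one in which the 3 probes had the same call.

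**Figure D4:**
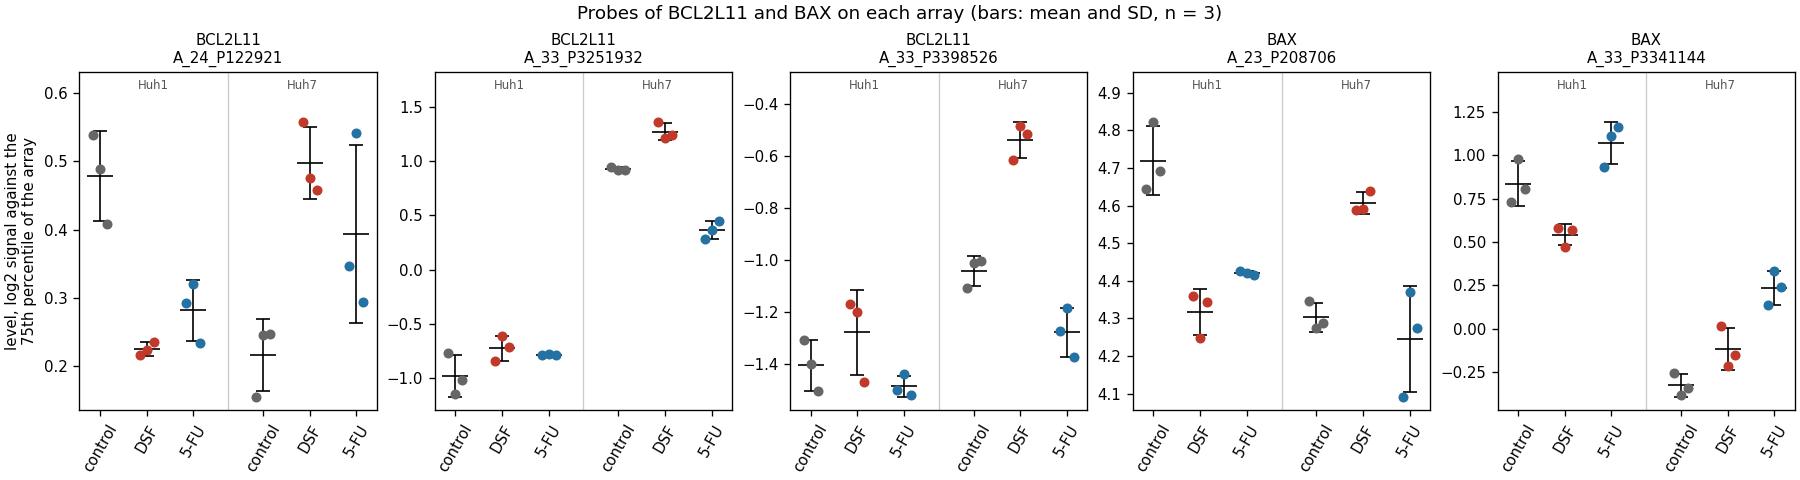
Levels of the 3 probes of BCL2L11 and the 2 of BAX on each array (y axis, log2 signal relative to the 75th percentile of the array, with a different range in each panel), with mean and SD of 3 arrays per group. After 5-FU in Huh7, A_24_P122921 lies above control and the other BCL2L11 probes lie below it, and the BAX probes A_23_P208706 and A_33_P3341144 part after 5-FU in both lines.

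In control cells the lines themselves differed in 8 of the 10 genes, against 70.7% of all probes (34.5% higher in Huh7, 36.2% lower). BCL2, BCL2L1, BBC3 and PMAIP1 were higher in Huh7, and MCL1, BAX and BID were higher in Huh1. The BCL2 call adds no support, since its probes passed the filter on dim signal only through Huh7 groups. BCL2L11 was called on each probe, lower in Huh7 on the brightest and higher on the other 2 (1.91 and 0.36), while BAK1 and BIK were not called. All Huh1 controls and all Huh7 controls lay on separate slides, so line and slide cannot be told apart in the control values. BCL2L1 (0.50) and BCL2L11 (-0.26) lost the call with the slide as a block, a fit in which the line difference rests on 1 Huh1 array that shared a slide with Huh7.

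Tested as a difference between the lines, the DSF effect differed in 6 of the 10 genes, against 40.3% of probes (21.1% higher, 19.2% lower), and the 5-FU effect in 5, against 36.6% (18.8% higher, 17.8% lower). BBC3, PMAIP1 and BCL2L11 were called for both drugs, with BBC3 and PMAIP1 lower and the brightest BCL2L11 probe higher in Huh7. The BCL2L11 probe A_33_P3251932 was called the other way for 5-FU (-0.76, adjusted p = 0.000296) and not called for DSF (0.09). BCL2, BAX and BID were called for DSF, all with the larger value in Huh7, and BIK and BAK1 for 5-FU. With spike-in scaling the DSF differences of BAX, BID and BCL2L11 and the 5-FU differences of BAK1, PMAIP1 and BCL2L11 were not called. For BCL2 the Huh1 side of the DSF difference is near background, and a fit with a slide term did not call it (adjusted p = 0.0664). The BCL2 probes passed the filter on dim signal only through Huh7 groups, so this call is no support for a line difference.

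DSF and 5-FU were given at different doses, and both are set against the same control arrays, so their values are placed side by side. In Huh1, PMAIP1 was at 2.07 after DSF and 1.08 after 5-FU, and BCL2L1 at 0.54 and 1.07, all as log2 changes from control. In Huh7, BIK was at 1.69 after DSF and 3.48 after 5-FU, BBC3 at -0.06 and -1.20, and BCL2L1 at 0.35 and 1.06.

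Compared directly as the treated groups were measured, DSF against 5-FU gave 5 calls in Huh1, against 49.2% of probes (28.7% higher, 20.6% lower), and 4 in Huh7, against 60.5% (35.6% higher, 25.0% lower). PMAIP1 (1.00, adjusted p = 0.000223) and BBC3 (0.32, adjusted p = 0.0431) were higher after DSF in Huh1, and BCL2L1, BAK1 and BID were lower. The BID call was lost when either of 2 single arrays was left out, and its other probe was not called (-0.033, adjusted p = 0.68). The BAX probe A_33_P3341144 was called lower in Huh1 (-0.53, adjusted p = 0.000194), where the brightest was not called. With spike-in scaling PMAIP1 was at 0.30 and not called (adjusted p = 0.168), and BBC3 lost its call when any of 11 single arrays was left out and with a slide term (adjusted p = 0.123). In Huh7, BBC3 (1.14, adjusted p = 2.11e-06) and BAX on its brightest probe (0.36) were higher after DSF. BIK (-1.79, adjusted p = 7.37e-06) and BCL2L1 (-0.71, adjusted p = 0.00364) were lower. The BAX probe A_33_P3341144 was called the other way (-0.35, adjusted p = 0.00309). Some dimmer probes were called higher after DSF in Huh7 where the brightest was not, with adjusted p of 0.00051 or less. These were A_33_P3251932 (0.91) and A_33_P3398526 (0.74) of BCL2L11, A_23_P352266 of BCL2 (0.82) and A_24_P187948 of BID (0.31). On the brightest probes several directions turned with spike-in scaling, including BBC3 in both lines (-0.37 in Huh1, -0.02 in Huh7) and BAX in Huh7 (-0.80). BIK in Huh7 and BCL2L1 kept theirs. With a slide term BCL2L1 was not called in either line (adjusted p = 0.0537 in Huh1 and 0.0665 in Huh7), and in Huh1 the call was also lost when any of 4 single arrays was left out.

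Scaling matters most for 5-FU. Relative to 6 spike-in control probes on each array, the 75th percentile stood 0.83 log2 units higher after 5-FU than in control in Huh1. In Huh7 it stood 0.99 higher after 5-FU, and after DSF it was 0.13 higher in Huh1 and 0.17 lower in Huh7. The methods do not describe how spike-ins were added. Scaled on the spike-ins, the median change of all probes was 0.79 and 0.94 after 5-FU, so the bulk of probes moved up. In that fit 10 of the 10 genes were called higher in Huh1 and 9 in Huh7. These counts stand without the share of probes called higher in the same fit and show no rise particular to the family. On this scaling BAX and BCL2L11 after 5-FU in Huh1 turned from lower to higher. The rises of BIK in all 4 comparisons and of BBC3 and PMAIP1 in Huh1 were called under both scalings.

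**Figure D5:**
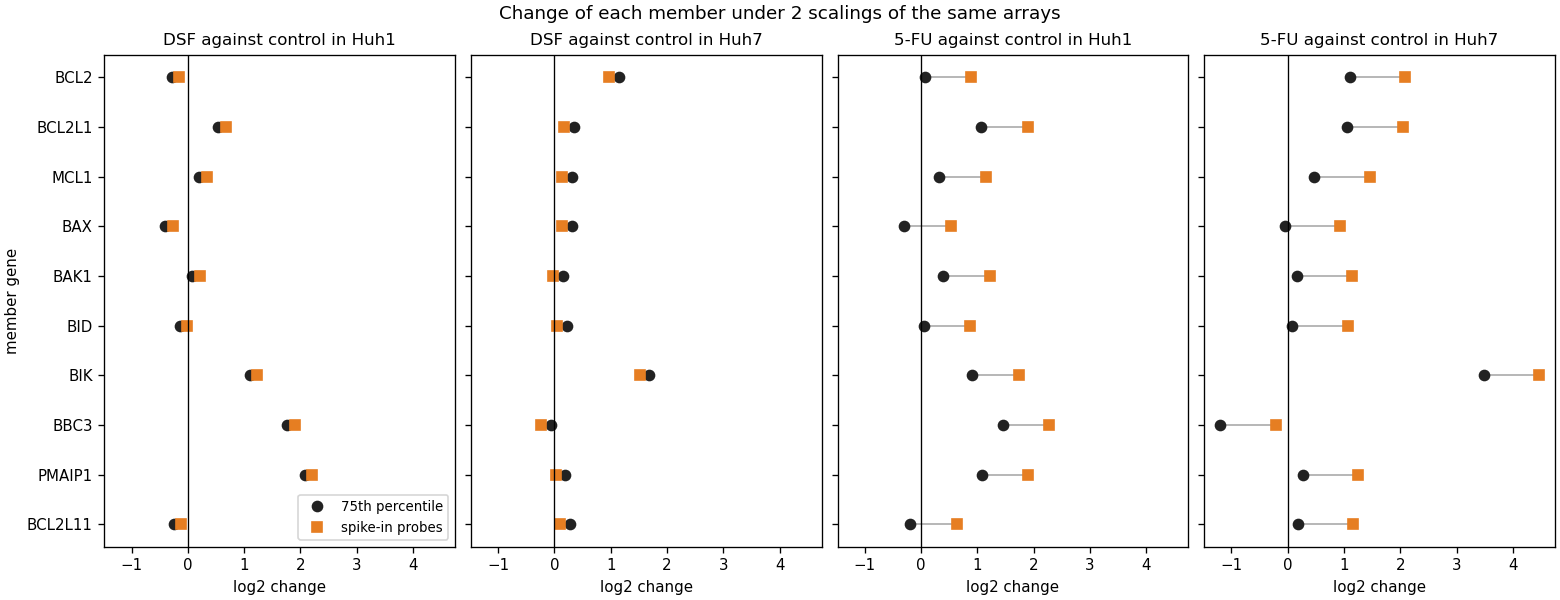
Log2 change of each gene against the control of its line (x axis) with arrays scaled on their 75th percentile (black circles) or on 6 spike-in probes (orange squares). The scalings lie close after DSF and are shifted by about 1 log2 unit after 5-FU, where BBC3 in Huh7 moves from -1.20 to -0.22.

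The balance between 2 genes on the same array does not depend on either scaling. Chosen after their values were seen, PMAIP1 and MCL1, a known binding pair, shifted relative to each other by 1.87 ± 0.25 (SE, n = 3) in favor of PMAIP1 after DSF in Huh1 and by 0.75 ± 0.25 after 5-FU, with no overlap with controls. In Huh7 the shifts were -0.12 ± 0.08 and -0.21 ± 0.30, overlapping controls. BBC3 relative to BCL2L1 shifted by 1.22 ± 0.16 after DSF and 0.38 ± 0.19 after 5-FU in Huh1, and by -0.41 ± 0.05 and -2.26 ± 0.27 in Huh7, with overlap with controls after 5-FU in Huh1 and none in the other 3 comparisons. As a ratio of RNA signals between 2 probes these values show unequal change and not an amount of either product.

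Beyond the 10 genes, 39 others were counted: 12 further family members, 18 genes of the mitochondrial death machinery, 4 of MCL1 turnover and 5 upstream regulators. Their counts are to be read against the shares of all probes called, 44.2% and 46.7% after DSF and 48.2% and 57.1% after 5-FU in Huh1 and Huh7. Of the 12 further family members, DSF gave 3 calls higher and 3 lower in Huh1, with 2 higher against 4 lower in Huh7. After 5-FU there were 6 calls higher and 2 lower in Huh1, with 2 higher against 4 lower in Huh7. HRK, another BH3-only gene, rose after DSF in both lines, from a mean of -2.69 to -0.45 in Huh7 (log2 2.24, adjusted p = 0.00027). In Huh1 it went from -6.98, with 1 of 3 control arrays above background, to -3.38 (adjusted p = 3.79e-06). BAD, a BH3-only protein inactivated by phosphorylation, rose after 5-FU in both lines, by 0.90 in Huh1 and 1.03 in Huh7, and BNIP3, a mitochondrial protein of mitophagy, fell by 0.37 and 1.65 on the log2 scale. With spike-in scaling BNIP3 was 0.45 higher in Huh1 and still lower in Huh7 (-0.66).

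Of the 18 genes of the death machinery (APAF1, CYCS, caspases, IAPs and their antagonists, and VDAC channels), DSF gave 3 calls higher and 6 lower in Huh1, with 9 higher against 7 lower in Huh7. After 5-FU there were 7 calls higher and 6 lower in Huh1, with 9 higher against 5 lower in Huh7. BIRC3, a caspase-binding IAP gene and NF-kB target, rose in all 4 comparisons, by 2.55 and 1.00 after DSF and 1.57 and 0.83 after 5-FU in Huh1 and Huh7. After DSF the apoptosome scaffold APAF1 fell by 0.46 and 0.80, CASP6 by 0.85 and 0.41 and AIFM1 by 0.54 and 0.28 on the log2 scale. After 5-FU BIRC2 rose by 0.71 and 0.52, and BIRC6 fell by 0.82 and 0.95 relative to the bulk of probes, since with spike-in scaling it was at 0.010 and 0.039 and not called. That scaling also took the call from APAF1 after DSF in Huh1 (-0.33). Of the 4 genes of MCL1 turnover, 1 was higher and 1 lower after DSF in each line, and after 5-FU 2 were lower in Huh1 and 3 in Huh7.

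Among the regulators upstream of BH3-only genes, DDIT3 (CHOP), a stress-response transcription factor, was measured with the following changes. It rose by 2.69 after DSF and 2.21 after 5-FU in Huh1 and by 0.48 after DSF in Huh7, and was not called after 5-FU in Huh7 (log2 -0.01, adjusted p = 0.969). FOXO3, which drives BCL2L11 and BBC3 in many cells, rose in Huh1 by 0.28 and 0.50 and fell in Huh7 by 0.18 and 0.24, and ATF4 fell after 5-FU by 0.45 in Huh1 and 0.95 in Huh7 and after DSF by 0.22 in Huh7. With spike-in scaling ATF4 after 5-FU turned to 0.37 in Huh1 and 0.036 in Huh7 and FOXO3 after 5-FU in Huh7 to 0.75. DDIT3 then stood at 0.98 after 5-FU in Huh7 and was called, while its DSF change there (0.31) and that of FOXO3 (-0.36) were not. TP73 lay near background in all groups, was called in none of the 4 comparisons and is given no fold. The changes of DDIT3 and PMAIP1 stand beside each other as values, and a link between them was not tested.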

How the data were processed

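RNA of sorted EpCAM+ cells was hybridised to one-color Agilent 60K human arrays. The authors deposited scanner files from Agilent Feature Extraction 10.7.1.1, per the labels, with spot intensity after background subtraction, and a table scaled to each array's 75th percentile, which on a log2 scale lies within 0.05 of the deposited scanner intensity plus 1 constant per array for 100% of probes. The methods name another software version.

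Here the log2 processed signal was averaged over unflagged spots of a probe (316 to 447 flagged and 0 saturated spots per array), and the array's log2 75th percentile (10.1 to 10.8) was subtracted. Of 42405 probes, 78 were left out for want of an unflagged spot, and 25341 to 30094 per array (59.9% to 71.1%) were well above background by the scanner's flag. The 29894 probes above it on all 3 arrays of a group were tested. The number of arrays limits the precision. RefSeq accessions of 27099 probes gave symbols for 25736, and coordinates come only from the GRCh38.p14 promoter table.

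One limma fit (limma 3.58.1, R 4.3.3; 12 residual degrees of freedom, moderated) covered all 6 groups and 9 contrasts, with Benjamini-Hochberg adjusted p under 0.05. Replicates are independent experiments per the methods, and correlate at 0.989 to 0.997. Standard errors and 95% intervals are limma's, apart from the standard errors of the shifts between 2 genes. Those come from the spread of the 3 arrays in each group compared, without moderation. All 10 genes are named in every contrast, and from the further lists at most 3 genes called higher and 3 lower in both lines per drug, plus the upstream regulators, of which 1 is not reported here. The members and lists were chosen with earlier results of these data known. The fit was also run on simulated data with known changes, drawn without slide or scaling shifts. Slides were read from array identifiers. Alternatives were quantile normalization, median centring, spike-in scaling, normexp background correction (offset 50), the authors' table, other filters, other sets of arrays, replicate and slide blocks, the mean of a gene's probes, single arrays left out and a threshold of 0.01. Tables and plots were made with Python 3.11.15, pandas 2.3.3, numpy 2.4.6 and matplotlib 3.10.9.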

Additional observations from a re-analysis of the deposited data

Results flagged for a closer look

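Effects that differed between the lines, as Huh7 minus Huh1 on the log2 scale by limma's test of the difference, were as follows. For DSF the differences were 1.43 for BCL2, 0.70 for BAX, 0.37 for BID, 0.53 for BCL2L11, -1.83 for BBC3 and -1.88 for PMAIP1. For 5-FU they were 2.57 for BIK, 0.37 for BCL2L11, -0.23 for BAK1, -0.81 for PMAIP1 and -2.65 for BBC3. The BCL2 value rests on a Huh1 probe above background on 1 of 3 control arrays and on 0 of 3 DSF arrays, and was not called with a slide term (adjusted p = 0.0664). This probe passed the filter on dim signal only through Huh7 groups. On the brightest probes BAX, BID and BCL2L11 had opposite signs in the lines after DSF, and BBC3 and BCL2L11 after 5-FU. The other BCL2L11 probes had the same sign in both lines after DSF, and A_33_P3251932 differed by -0.76 after 5-FU. With spike-in scaling the DSF differences of BAX (0.40), BID (0.060) and BCL2L11 (0.23) and the 5-FU differences of BAK1 (-0.071), PMAIP1 (-0.65) and BCL2L11 (0.53) were not called, and BCL2L11 was higher after 5-FU in both lines. The BAK1 difference lost its call when any of 14 single arrays was left out. Groups of 3 arrays were too small for a test of single outlying arrays.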

How the results depend on the processing

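With the authors' table, 90 of the 90 member changes (10 genes in 9 contrasts) kept direction and call, and without a filter on dim probes 84 did. The authors' table holds the same intensities up to 1 constant per array, so its result followed by construction and is no separate check. Spike-in scaling kept 49 and the mean of a gene's probes 70. Counts of calls in this and the next paragraph are given without the share of all probes called in the same fit. They show how far calls depend on the processing and are no result about the 10 genes. Spike-in scaling gave 2 calls in place of 6 after DSF in Huh7, 8 for 5 and 9 for 4 in DSF against 5-FU in Huh1 and Huh7, and 3 for 6 and 3 for 5 in the line differences for DSF and 5-FU. It turned BAX after 5-FU to 0.53 in Huh1 and 0.93 in Huh7, BCL2L11 after 5-FU in Huh1 to 0.63, BAK1 after DSF in Huh7 to -0.019, and DSF against 5-FU to -1.12 for BCL2, -1.06 for BCL2L11, -1.02 for BID, -0.80 for BAX and -0.020 for BBC3 in Huh7 and -0.37 for BBC3 in Huh1. It also moved the share of called probes that were higher from 54.1% to 74.5% (DSF, Huh1), 58.5% to 34.6% (DSF, Huh7), 46.1% to 98.4% and 47.9% to 95.7% (5-FU), 58.2% to 6.87% and 58.8% to 3.3% (DSF against 5-FU, Huh1 and Huh7), and 52.3% to 17.1% and 51.3% to 67.1% (line differences). Median centring moved the median DSF change of all probes in Huh1 from 0.00 to -0.17 and the higher share from 54.1% to 33%, from 58.2% to 40.7% in DSF against 5-FU in Huh1, and from 52.3% to 68.5% in the DSF line difference. The mean of a gene's probes turned BAX after 5-FU in Huh7 to 0.25, and BCL2L11 to 0.042 after DSF in Huh1, -0.21 after 5-FU in Huh7, 0.67 between controls and -0.18 in the 5-FU line difference. Normexp, run on the median spot signal since the files used here hold no mean signal, and added after the data were seen, turned BCL2 in Huh1 to -0.38 after 5-FU and 0.34 in DSF against 5-FU, both near background. The planned version on the mean signal was not run. For DSF against 5-FU in Huh1, calls fell to 3 with only the groups compared, 3 with the slide block and 2 at a threshold of 0.01, where the 5-FU line difference fell to 3. Without both arrays of slide 3, also added later, 3 genes were called after DSF in Huh7. The causes of these changes were not tested beyond what each alternative changes by construction.

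Leaving out single arrays gave 5 to 7 calls after DSF in Huh1, 5 to 7 in Huh7, 6 to 8 and 5 to 7 after 5-FU, 2 to 5 and 4 to 6 in DSF against 5-FU, 7 to 9 between controls, and 6 to 7 and 4 to 6 in the line differences. Calls of BIK, BBC3 and PMAIP1 against control in Huh1, of BIK in Huh7 and of BBC3 after 5-FU in Huh7 held without any single array. Replicate numbers did not pair the arrays: deviations of same-numbered arrays correlated between -0.09 and 0.10. With the replicate block 5 genes were called after DSF in Huh7 in place of 6 (BAK1 lost), and 87 of the 90 member changes kept their call. Levels of BCL2 in Huh1 are limited by signal over background.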
